A study of Mus musculus with 20 samples.

Results

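The genes examined here encode the aminoacyl-tRNA synthetases, the enzymes that load each amino acid onto its transfer RNA, in the livers of mice given CMP013, an inhibitor of the β-secretase BACE1. Members were taken from a list of 36 gene symbols, and a probe set was counted where its annotated symbol was on the list, with or without a final 1. The list holds 20 cytosolic synthetases, 13 mitochondrial synthetases whose symbols end in 2, the editing protein Aarsd1, and the 2 scaffold proteins Aimp1 and Aimp2. Of the 36 genes, 35 had a probe set of their own, out of 18193 such genes on the array, and 19 of these 35 encode cytosolic synthetases. Dars is named only. In all, 72 of the 45037 probe sets on the array (called sequences in the study) name a member and 71 name no other gene. Each member was measured by 1 of its probe sets, chosen for a small spread among vehicle animals.

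Male mice, 9 weeks old at the start, received CMP013 at 150 mg/kg/day or vehicle by oral gavage every 24 h, and livers were taken at 96 h. Wild-type (WT) mice were C57Bl/6 (PXR+/+). PXR-KO mice lacked the pregnane X receptor, a nuclear receptor that senses drugs (PXR-/-), and were on the C57Bl/6NTac background by the study text, while 1 of their labels gives C57BL/6, so genotype and background cannot be told apart. Each of the 4 groups held 5 animals, and each animal had 1 Affymetrix GeneChip array.

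An aminoacyl-tRNA synthetase joins an amino acid to its transfer RNA with energy from ATP, and the charged transfer RNA is what the ribosome reads. The cytosolic enzymes serve the bulk of protein synthesis, several of them inside a multisynthetase complex held together by Aimp1, Aimp2 and Eef1e1, while the mitochondrial enzymes are encoded by other nuclear genes and serve the few proteins made inside mitochondria. Kars and Gars are exceptions, since each of these genes gives rise to both a cytosolic and a mitochondrial enzyme. Liver is a tissue of heavy protein export, and many cytosolic synthetase genes are known targets of ATF4, the transcription factor of the amino acid response.

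Every value below is a ratio of the signal in 1 animal to the average signal of the 5 vehicle mice that shared its genotype. The ratios carry no level of expression, so neither the order of the genes by level, nor the liver markers by level, nor the loss of PXR in the knockout livers was analysed here. The array medians lay between -0.03 and 0.01 on the log2 scale. On the second principal component 4 vehicle animals lay away from the others (WT replicates 3 and 4 and PXR-KO replicates 2 and 4), and WT CMP013 replicate 5 had the widest spread of log2 ratios (SD 0.704). The RNA integrity numbers given in the labels were 9.3 to 10 for WT and 8.7 to 9.6 for PXR-KO livers, and their part in the results was not tested. Among vehicle animals the SD of the log2 ratio had a median of 0.10 over the cytosolic and 0.13 over the mitochondrial synthetases, against 0.22 over all genes.

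Promoters are shown first for 3 called members that carry the core letters of the amino acid response element, the kind of sequence that ATF4 binds. The letters TGATGNAA, read on either strand (TTNCATCA on the other), were searched in the RefSeq promoter windows of build GRCm38.p6, which run from 250 bases before to 50 bases after the start of the gene. Of the 36 members, 29 had a window, while Cars, Hars, Lars, Nars, Rars, Vars and Wars, all cytosolic, had none. The letters were found in 5 of 13 cytosolic synthetases (38.5%), in 0 of 13 mitochondrial synthetases, in neither scaffold and not in Aarsd1, against 4.51% of 27025 genes with a window. The match in each case is shown in capitals, 5′ to 3′ along the gene.
Iars: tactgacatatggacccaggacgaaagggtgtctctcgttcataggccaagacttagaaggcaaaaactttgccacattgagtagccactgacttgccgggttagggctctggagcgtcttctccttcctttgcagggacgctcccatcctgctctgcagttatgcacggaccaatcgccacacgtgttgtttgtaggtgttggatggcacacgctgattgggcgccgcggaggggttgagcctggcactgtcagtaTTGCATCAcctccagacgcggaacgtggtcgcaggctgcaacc
Aars: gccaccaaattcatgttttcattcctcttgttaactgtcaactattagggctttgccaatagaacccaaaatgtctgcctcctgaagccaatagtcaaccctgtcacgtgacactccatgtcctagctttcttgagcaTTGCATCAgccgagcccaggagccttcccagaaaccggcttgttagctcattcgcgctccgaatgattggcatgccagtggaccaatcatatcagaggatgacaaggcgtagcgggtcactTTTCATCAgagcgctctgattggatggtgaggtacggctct
Yars: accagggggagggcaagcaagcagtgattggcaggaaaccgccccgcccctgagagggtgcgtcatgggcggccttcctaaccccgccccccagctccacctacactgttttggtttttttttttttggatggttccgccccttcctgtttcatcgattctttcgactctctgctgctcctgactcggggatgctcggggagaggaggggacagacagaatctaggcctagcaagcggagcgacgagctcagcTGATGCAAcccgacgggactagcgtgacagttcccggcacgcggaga
These windows are chr13:49681880-49682179 for Iars, chr8:111033592-111033891 for Aars and chr4:129189653-129189952 for Yars, all on the plus strand. Aars, the alanine enzyme, had a match on each side of its start, whereas Iars (isoleucine) and Yars (tyrosine) had theirs just after the start. The remaining matches, in Gars (glycine) and Tars (threonine), lay before the start and are shown with 14 bases on either side. They were added after their values had been seen.
Gars: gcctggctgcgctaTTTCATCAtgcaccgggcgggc
Tars: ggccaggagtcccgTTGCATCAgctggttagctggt
These stretches are chr6:55037957-55037992 on the plus strand for Gars and chr15:11399652-11399687 on the minus strand for Tars. A match is a description of letters and not evidence of a bound site.

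In WT mice, CMP013 raised 15 of the 35 measured members (42.9%) and lowered 1. Over all genes 9.72% rose and 7.98% fell. The synthetases varied less among vehicle animals than all genes did (median SD 0.10 cytosolic and 0.13 mitochondrial, against 0.22). That spread enters the tests, and its part in these shares was not tested. By role, 8 of 19 cytosolic synthetases rose (42.1%) and 0 fell (1 at an unadjusted p under 0.05, limma), 5 of 13 mitochondrial synthetases rose (38.5%) and 1 fell, Aarsd1 rose, and of the scaffolds Aimp2 rose. The changes were small. The median log2 fold change was 0.26 over the cytosolic and 0.19 over the mitochondrial synthetases, against 0.00 over all genes, and the largest rise was 0.93. Whether a tissue-wide value reflects more cells of a type or more RNA per cell cannot be told apart in whole liver. The treated and vehicle animals did not overlap for 14 members that were higher in treated animals (40%, against 10.2% of all genes), and for 1 member, Nars2, that was lower (9.01% of all genes). All 5 treated animals were past a log10 ratio of 0.097, the fold threshold of the study's methods, for 7 members upwards (6.46% of all genes) and 0 downwards (5.17% of all genes). Without the 4 vehicle animals that stood apart, 4 cytosolic and 2 mitochondrial synthetases passed as higher and 0 as lower, and after quantile normalization of the ratios 2 and 1 passed as higher and 0 as lower. Of the 16 WT calls, those of Farsa, Iars, Aarsd1 and Ears2 passed in both fits, those of Kars, Rars, Sars2 and Aimp2 only in the fit without the 4 vehicle animals, and the other 8 in neither. Without any one of WT vehicle replicates 1, 3 and 5 or WT CMP013 replicate 4, 5 cytosolic synthetases passed as higher, and without WT CMP013 replicate 5 the mitochondrial median was 0.30.

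**Figure D1:**
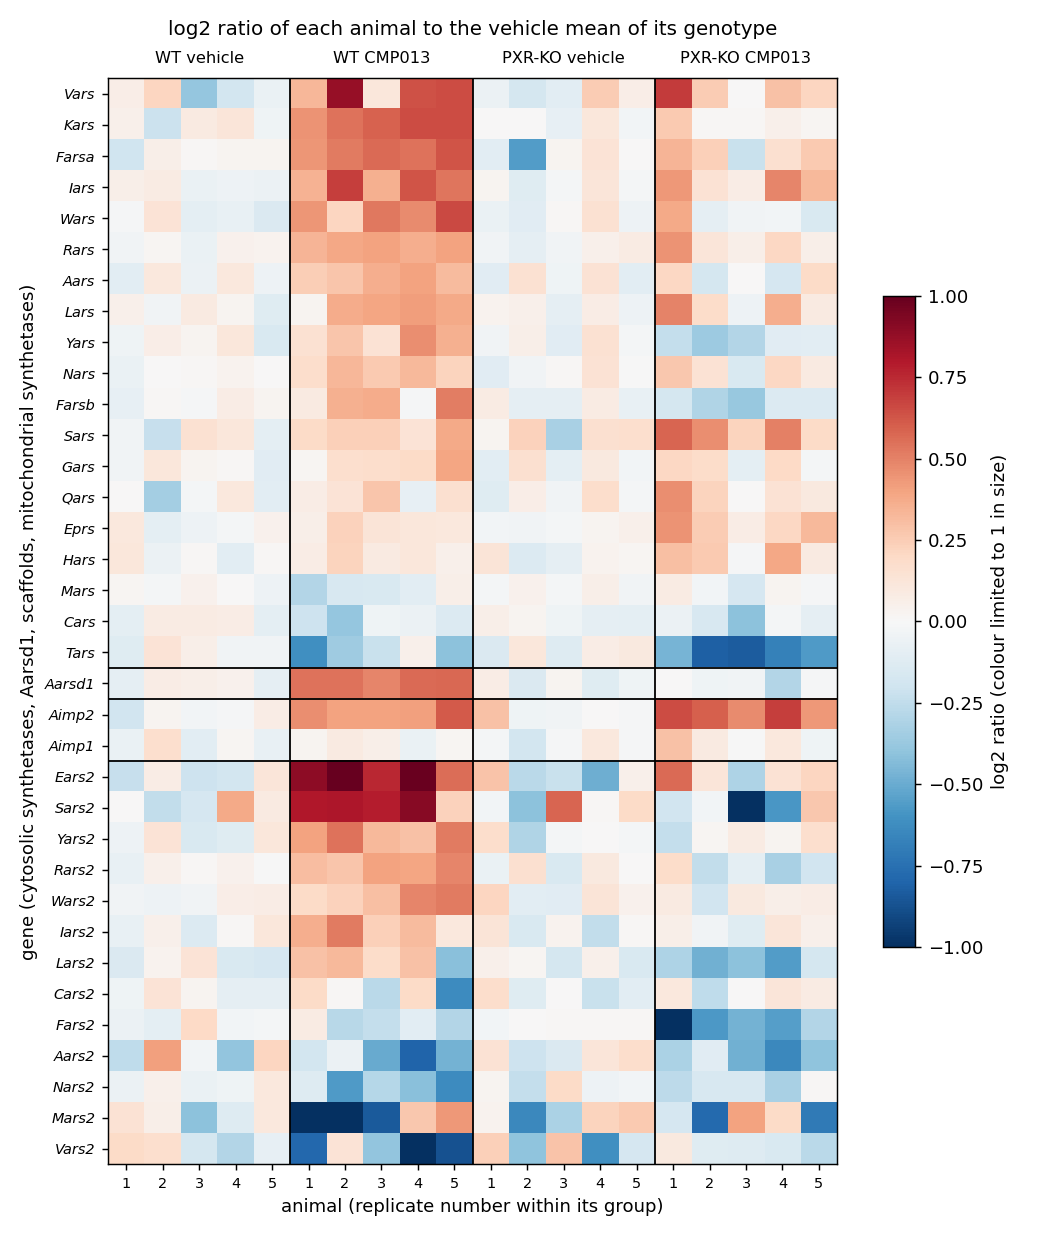
Log2 ratio of every measured member (rows, gene symbols grouped as cytosolic synthetases, Aarsd1, scaffolds and mitochondrial synthetases) in each of the 20 animals (columns, 5 per group), with colours limited to 1 in size. The WT CMP013 columns are mostly red for the upper cytosolic and upper mitochondrial rows, and the PXR-KO CMP013 columns are paler, with Tars and Fars2 in blue.

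Among the cytosolic enzymes Kars, which charges lysine, rose in WT mice. Its ratios were 1.36, 1.45, 1.5, 1.57 and 1.57 in the WT CMP013 animals (replicates 1 to 5, here and below) and 1.04, 0.861, 1.07, 1.09 and 0.97 in the WT vehicle animals. All treated animals lay above all vehicle animals, and the log2 fold change was 0.57 (SE 0.09, n = 5 against 5, adjusted p = 0.00278, limma). In PXR-KO mice the ratios were 1.20, 1.01, 1.01, 1.04 and 1.01 under CMP013 and 1.00, 1.00, 0.945, 1.08 and 0.98 under vehicle. These groups overlapped, with a log2 fold change of 0.07 (SE 0.09, adjusted p = 0.691), and the response was larger in WT mice by 0.50 (SE 0.11, adjusted p = 0.00699). Both calls of Kars held when any 1 animal was left out and were lost after quantile normalization (adjusted p = 0.0694 in WT mice and 0.195 for the difference).

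Farsa encodes the α chain of the phenylalanine enzyme, which is built from 2 kinds of chain. In WT mice its ratios were 1.36, 1.44, 1.48, 1.46 and 1.55 under CMP013 against 0.873, 1.04, 1.01, 1.02 and 1.02 under vehicle, with no overlap (log2 fold change 0.55, SE 0.08, adjusted p = 0.00186). In PXR-KO mice they were 1.27, 1.18, 0.855, 1.12 and 1.20 against 0.931, 0.678, 1.02, 1.10 and 1.00, with overlap and a wider scatter (log2 fold change 0.26, SE 0.15, adjusted p = 0.387). The difference between the genotypes did not pass (0.30, SE 0.17, adjusted p = 0.298). The other 3 probe sets of Farsa were not called, with WT log2 values from -0.19 to 0.14. Farsb, the β chain, was not called in either genotype (0.26 in WT mice, -0.21 in the knockout), yet its responses differed by 0.47 (SE 0.13, adjusted p = 0.0288). That difference was lost without WT vehicle replicate 1, WT CMP013 replicate 3, PXR-KO vehicle replicates 1 or 4, or PXR-KO CMP013 replicate 2 (adjusted p up to 0.0546). It was also lost after quantile normalization, with replicate number entered as a block and without the 4 vehicle animals that stood apart. The mean over its probe sets and its probe set of largest fold change in WT mice lost it too (adjusted p up to 0.503). A further probe set of Farsb, whose mark says it may also bind related transcripts, gave 0.35 in WT mice (adjusted p = 0.0107). Its difference of 0.56 passed (adjusted p = 0.00281). The remaining probe sets were not called, with WT log2 values of 0.17 and 0.75 and differences of 0.195 and 0.59.

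Iars, the isoleucine enzyme and one of the promoters shown, rose in WT mice. The ratios were 1.28, 1.61, 1.28, 1.54 and 1.45 under CMP013 and 1.04, 1.06, 0.954, 0.964 and 0.958 under vehicle, with no overlap (log2 fold change 0.52, SE 0.09, adjusted p = 0.00531). In PXR-KO mice they were 1.35, 1.11, 1.05, 1.40 and 1.251 against 1.02, 0.92, 0.987, 1.09 and 0.986. There 1 treated animal lay within the vehicle range and 3 of 5 were past the fold threshold, and the log2 fold change of 0.30 did not pass (SE 0.10, adjusted p = 0.149). The difference was 0.23 (SE 0.13, adjusted p = 0.30). The other probe set of Iars, whose mark says it may also bind related transcripts, was likewise called in WT mice (0.47, SE 0.08, adjusted p = 0.00389), and its difference of 0.37 passed (SE 0.11, adjusted p = 0.0445).

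Rars, the arginine enzyme, gave the tightest treated group among the cytosolic calls. Its WT ratios were 1.27, 1.31, 1.32, 1.29 and 1.32 under CMP013 and 0.978, 1.01, 0.954, 1.03 and 1.03 under vehicle (log2 fold change 0.38, SE 0.07, adjusted p = 0.00527). The PXR-KO ratios were 1.36, 1.09, 1.04, 1.15 and 1.04 against 0.978, 0.939, 0.974, 1.04 and 1.06. The WT groups were apart and the PXR-KO groups overlapped, where the log2 fold change was 0.18 (SE 0.10, adjusted p = 0.321). The difference, 0.20, did not pass (SE 0.11, adjusted p = 0.256).

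Wars, the tryptophan enzyme, is also known as an interferon-induced gene. In WT mice its ratios were 1.36, 1.16, 1.44, 1.39 and 1.58 under CMP013 and 0.99, 1.10, 0.935, 0.952 and 0.904 under vehicle, without overlap (log2 fold change 0.50, SE 0.10, adjusted p = 0.00936). In PXR-KO mice 1 treated animal stood high, at 1.30, 0.94, 0.977, 0.983 and 0.899 against 0.958, 0.926, 1.01, 1.11 and 0.966 (log2 fold change 0.03, SE 0.11, adjusted p = 0.921). The difference was 0.47 (SE 0.15, adjusted p = 0.0444) and lay close to the threshold, since it was lost in 16 of the 20 fits that each left out 1 animal. It was retained only without WT vehicle replicate 2, WT CMP013 replicate 2, PXR-KO vehicle replicate 2 or PXR-KO CMP013 replicate 1, and over the 20 fits the adjusted p ran from 0.00797 to 0.0814. The other 3 probe sets of Wars gave WT log2 values of 0.07 to 0.28 and were not called.

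Beside Wars, a list of interferon-stimulated genes moved in WT mice, 7 of 11 higher and 0 lower (0 at an unadjusted p under 0.05), with a median log2 fold change of 0.83. Ifit1 rose by 2.06 (SE 0.30, adjusted p = 0.00185), Cxcl10 by 2.12 (SE 0.37, adjusted p = 0.00453) and Irf7, a transcription factor of the interferon response, by 0.83 (SE 0.17, adjusted p = 0.00947). In PXR-KO mice 1 of 11 was higher, Cxcl10. The part of interferon signalling in the Wars values was not tested.

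Yars, the tyrosine enzyme, had opposite signs in the 2 genotypes. The WT ratios were 1.11, 1.21, 1.11, 1.38 and 1.28 under CMP013 against 0.97, 1.05, 1.02, 1.08 and 0.902 under vehicle, and the PXR-KO ratios were 0.85, 0.776, 0.817, 0.924 and 0.928 against 0.973, 1.04, 0.923, 1.11 and 0.989. Neither response passed (log2 fold change 0.28 in WT mice, adjusted p = 0.0808, and -0.23 in the knockout, adjusted p = 0.189). Their difference did, at 0.51 (SE 0.12, adjusted p = 0.01), and it held without any 1 animal. It was lost after quantile normalization and without the 4 vehicle animals that stood apart (adjusted p up to 0.14).

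Aars, the alanine enzyme with 2 matches in its promoter, and Vars, the valine enzyme, were called with less margin. For Aars the WT ratios were 1.19, 1.21, 1.29, 1.32 and 1.245 under CMP013 and 0.929, 1.08, 0.958, 1.08 and 0.967 under vehicle (log2 fold change 0.32, SE 0.08, adjusted p = 0.025), and the PXR-KO ratios were 1.15, 0.887, 1.00, 0.89 and 1.14 against 0.922, 1.11, 0.97, 1.10 and 0.932 (0.01, SE 0.11, adjusted p = 0.987). The WT groups were apart, but the call was lost without WT vehicle replicates 1, 3 or 5 or WT CMP013 replicates 3 or 4 (adjusted p up to 0.0654). For Vars, the largest cytosolic rise, the WT ratios were 1.26, 1.83, 1.08, 1.56 and 1.57 under CMP013 and 1.05, 1.16, 0.767, 0.879 and 0.957 under vehicle (0.59, SE 0.16, adjusted p = 0.0373). The PXR-KO ratios of Vars were 1.63, 1.19, 1.00, 1.23 and 1.16 against 0.96, 0.883, 0.93, 1.19 and 1.04 (0.30, SE 0.14, adjusted p = 0.263). Both pairs of groups overlapped for Vars, and its WT call was lost without WT vehicle replicates 1, 3, 4 or 5 or WT CMP013 replicates 2, 4 or 5 (adjusted p up to 0.0851).

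Nars, the asparagine enzyme, rose by 0.26 in WT mice (SE 0.07, adjusted p = 0.0354), a call lost without any 1 WT vehicle animal or without WT CMP013 replicates 2, 3 or 4 (adjusted p up to 0.0868). Its other probe set gave a larger rise of 0.43 (SE 0.08, adjusted p = 0.00725). Of the 11 cytosolic synthetases not called in WT mice, Lars (leucine) came closest at 0.32 (adjusted p = 0.0593), with 4 of 5 treated animals past the fold threshold. Sars (serine) was at 0.26, Gars (glycine) at 0.19, Qars (glutamine) at 0.19, Eprs (glutamate and proline) at 0.13 and Hars (histidine) at 0.11, and 3 lay below 0, namely Mars (methionine) at -0.13, Cars (cysteine) at -0.18 and Tars at -0.31. Hars depended on the probe set, as its other one gave 0.39 in WT mice (adjusted p = 0.00917) and a difference between the genotypes of 0.42 (adjusted p = 0.029). Of the 7 measured enzymes of the multisynthetase complex 3 rose, against 5 of 12 outside it. That grouping was chosen after the values had been seen. By structural class, 8 of 18 class I and 5 of 13 class II enzymes rose.

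**Figure D2:**
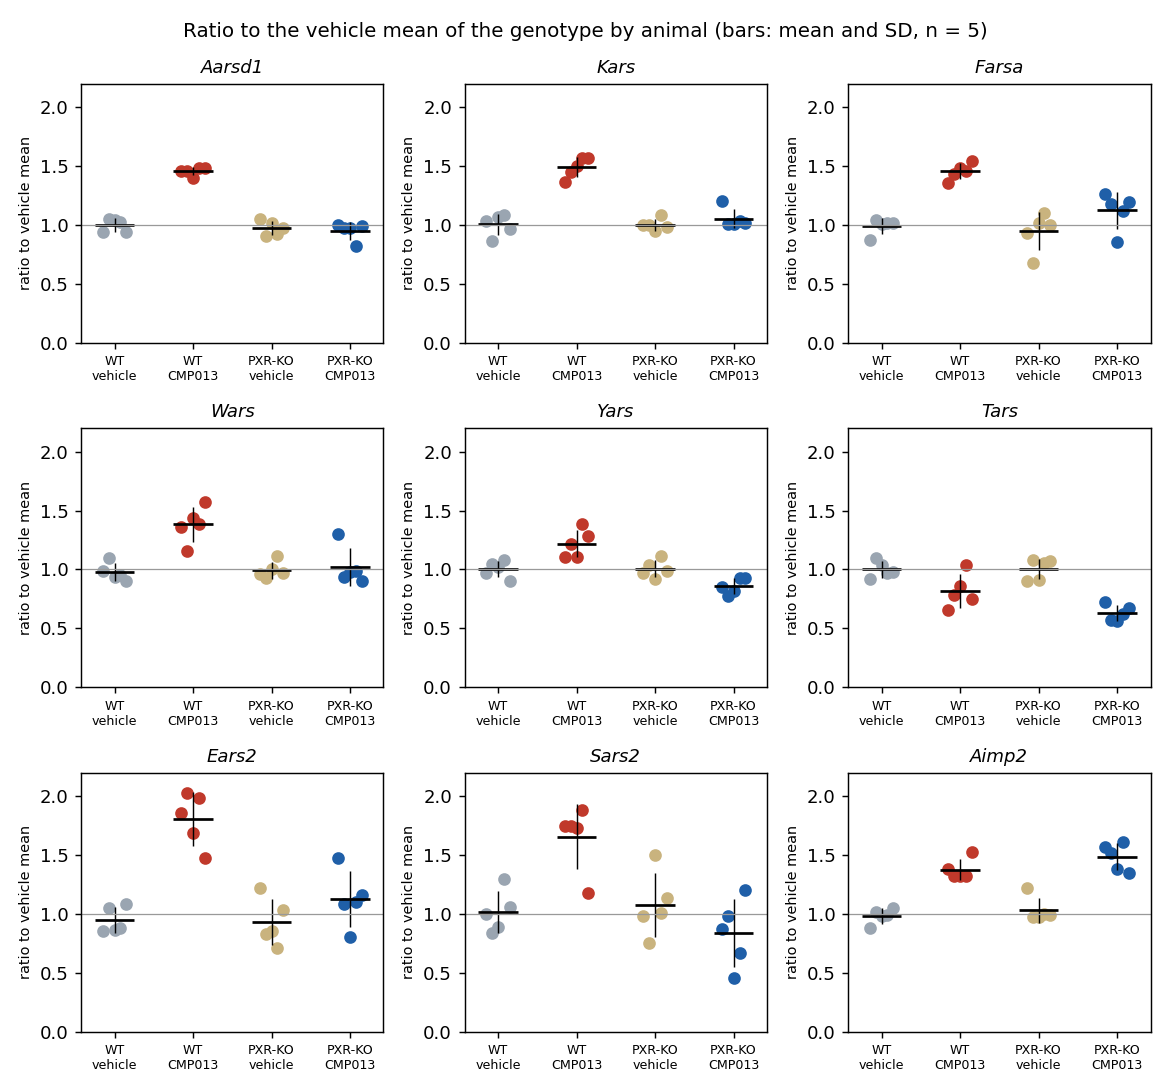
Ratio to the vehicle mean of the genotype (vertical axis, from 0) in each animal for 9 members, with the mean and SD of each group of 5. Aarsd1, Kars, Wars and Yars lie higher in WT CMP013 animals with most PXR-KO CMP013 animals near or below 1, Tars lies lowest in PXR-KO CMP013 animals, and Aimp2 is raised in both genotypes.

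Aarsd1, which charges no transfer RNA but removes serine wrongly joined to the alanine one, showed the smallest adjusted p for the difference between genotypes. Its WT ratios were 1.46, 1.45, 1.40, 1.48 and 1.49 under CMP013 and 0.938, 1.05, 1.04, 1.03 and 0.938 under vehicle (log2 fold change 0.54, SE 0.08, adjusted p = 0.00127). Its PXR-KO ratios were 1.00, 0.971, 0.976, 0.818 and 0.993 against 1.05, 0.907, 1.02, 0.92 and 0.971 (-0.04, SE 0.09, adjusted p = 0.865). All WT treated animals lay above all other animals, no PXR-KO treated animal exceeded its vehicle range, and the difference of 0.58 passed (SE 0.10, adjusted p = 0.00131) under each of the 12 other settings and 20 left-out animals tried.

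Among the mitochondrial enzymes Ears2, which joins glutamate to transfer RNA, had the largest rise of any member. In WT mice the ratios were 1.85, 2.03, 1.69, 1.99 and 1.47 under CMP013 and 0.854, 1.05, 0.865, 0.881 and 1.09 under vehicle (log2 fold change 0.93, SE 0.12, adjusted p = 0.000938). In PXR-KO mice they were 1.48, 1.09, 0.805, 1.10 and 1.16 against 1.22, 0.828, 0.858, 0.714 and 1.04 (0.28, SE 0.18, adjusted p = 0.439). The WT groups were wide apart and the PXR-KO groups overlapped, but the difference of 0.65 did not pass (SE 0.22, adjusted p = 0.0683). The other 3 probe sets of Ears2 gave WT log2 values of 0.22, 0.54 and 0.91 and were not called. In mitochondria glutamine is not joined to its transfer RNA directly: Ears2 first loads glutamate, which the amidotransferase of Qrsl1, Gatb and Gatc then converts. Of these, Gatb rose in WT mice by 0.58 (SE 0.10, adjusted p = 0.00474) and its responses differed by 0.62 (SE 0.14, adjusted p = 0.00655), whereas Qrsl1 was at 0.49 (adjusted p = 0.234) and Gatc at 0.14 (adjusted p = 0.265), these last named after their values had been seen.

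Sars2, the mitochondrial serine enzyme, had the widest gap between the genotypes and also a large scatter. The WT ratios were 1.75, 1.75, 1.73, 1.88 and 1.17 under CMP013 and 1.00, 0.841, 0.892, 1.30 and 1.06 under vehicle, so that 4 of 5 treated animals were above every vehicle animal (log2 fold change 0.70, SE 0.16, adjusted p = 0.0163). The PXR-KO ratios were 0.876, 0.982, 0.456, 0.669 and 1.20 against 0.983, 0.753, 1.5, 1.01 and 1.14 (-0.40, SE 0.27, adjusted p = 0.433). The difference was 1.10 (SE 0.32, adjusted p = 0.0337) and was lost in 10 of 20 fits that left out 1 animal (WT vehicle replicates 1, 2 or 3, WT CMP013 replicates 1, 2, 3 or 4, PXR-KO vehicle replicates 3 or 5, or PXR-KO CMP013 replicate 4), with an adjusted p of at most 0.0643.

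Rars2 and Yars2, the mitochondrial arginine and tyrosine enzymes, rose in WT mice by smaller amounts. Rars2 stood at 1.24, 1.21, 1.32, 1.31 and 1.41 in WT CMP013 and 0.949, 1.04, 1.01, 1.03 and 0.996 in WT vehicle animals (log2 fold change 0.37, SE 0.08, adjusted p = 0.0101), and at 1.14, 0.843, 0.936, 0.799 and 0.876 against 0.952, 1.12, 0.901, 1.07 and 1.00 in PXR-KO mice (-0.14, SE 0.11, adjusted p = 0.526). The WT groups were apart, the PXR-KO groups were not, and the responses differed by 0.51 (SE 0.13, adjusted p = 0.0144). On the log2 scale Yars2 stood at 0.41, 0.54, 0.32, 0.29 and 0.52 in WT CMP013 and -0.05, 0.13, -0.15, -0.12 and 0.11 in WT vehicle animals (log2 fold change 0.43, SE 0.10, adjusted p = 0.0136), and at -0.24, 0.02, 0.08, 0.03 and 0.17 against 0.17, -0.30, -0.02, 0.01 and -0.02 in PXR-KO mice (0.05, SE 0.11, adjusted p = 0.858). The Yars2 groups were likewise apart in WT mice, and the difference of 0.39 did not pass (SE 0.14, adjusted p = 0.0866). The other probe set of Yars2 gave 0.12 in WT mice (SE 0.21, adjusted p = 0.777), and with the mean over both probe sets the WT call was lost (Yars2 in WT at 0.27, adjusted p = 0.199).

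Wars2 (tryptophan) rose by 0.34 in WT mice (SE 0.09, adjusted p = 0.0329) and Nars2 (asparagine) fell by 0.40 (SE 0.11, adjusted p = 0.0338). Each call was lost in 8 of 10 fits without 1 animal, namely without any of the 5 WT vehicle animals and, for Wars2, without WT CMP013 replicates 3, 4 or 5 (adjusted p up to 0.076) or, for Nars2, without WT CMP013 replicates 2, 4 or 5 (adjusted p up to 0.0778). The other probe set of Nars2 was at 0.07. Of the 7 mitochondrial synthetases not called in WT mice, Vars2 (valine) was the lowest, with ratios of 0.579, 1.10, 0.759, 0.304 and 0.548 under CMP013 and 1.14, 1.12, 0.883, 0.818 and 0.946 under vehicle. Its log2 fold change of -0.69 did not pass (SE 0.29, adjusted p = 0.155), and 1 treated animal lay among the vehicle animals and the others were scattered. In PXR-KO mice Vars2 stood at 1.07, 0.918, 0.915, 0.901 and 0.831 against 1.18, 0.755, 1.22, 0.652 and 0.889 (0.02, SE 0.18, adjusted p = 0.966). The remaining 6 were Iars2 at 0.32, Lars2 at 0.19, Cars2 at -0.09, Fars2 at -0.17, Aars2 at -0.39 and Mars2 at -0.57.

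Among the members, 11 pairs of genes share a symbol but for the final 2 of the mitochondrial enzyme, 1 pair per amino acid. In WT mice both rose for arginine and tryptophan, the cytosolic gene alone was called for alanine, isoleucine and valine, and the mitochondrial gene alone was called for serine and tyrosine. Asparagine was the 1 pair with opposite calls, Nars higher and Nars2 lower, and cysteine, leucine and methionine had no call in either gene. The differences within these pairs were not tested.

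**Figure D3:**
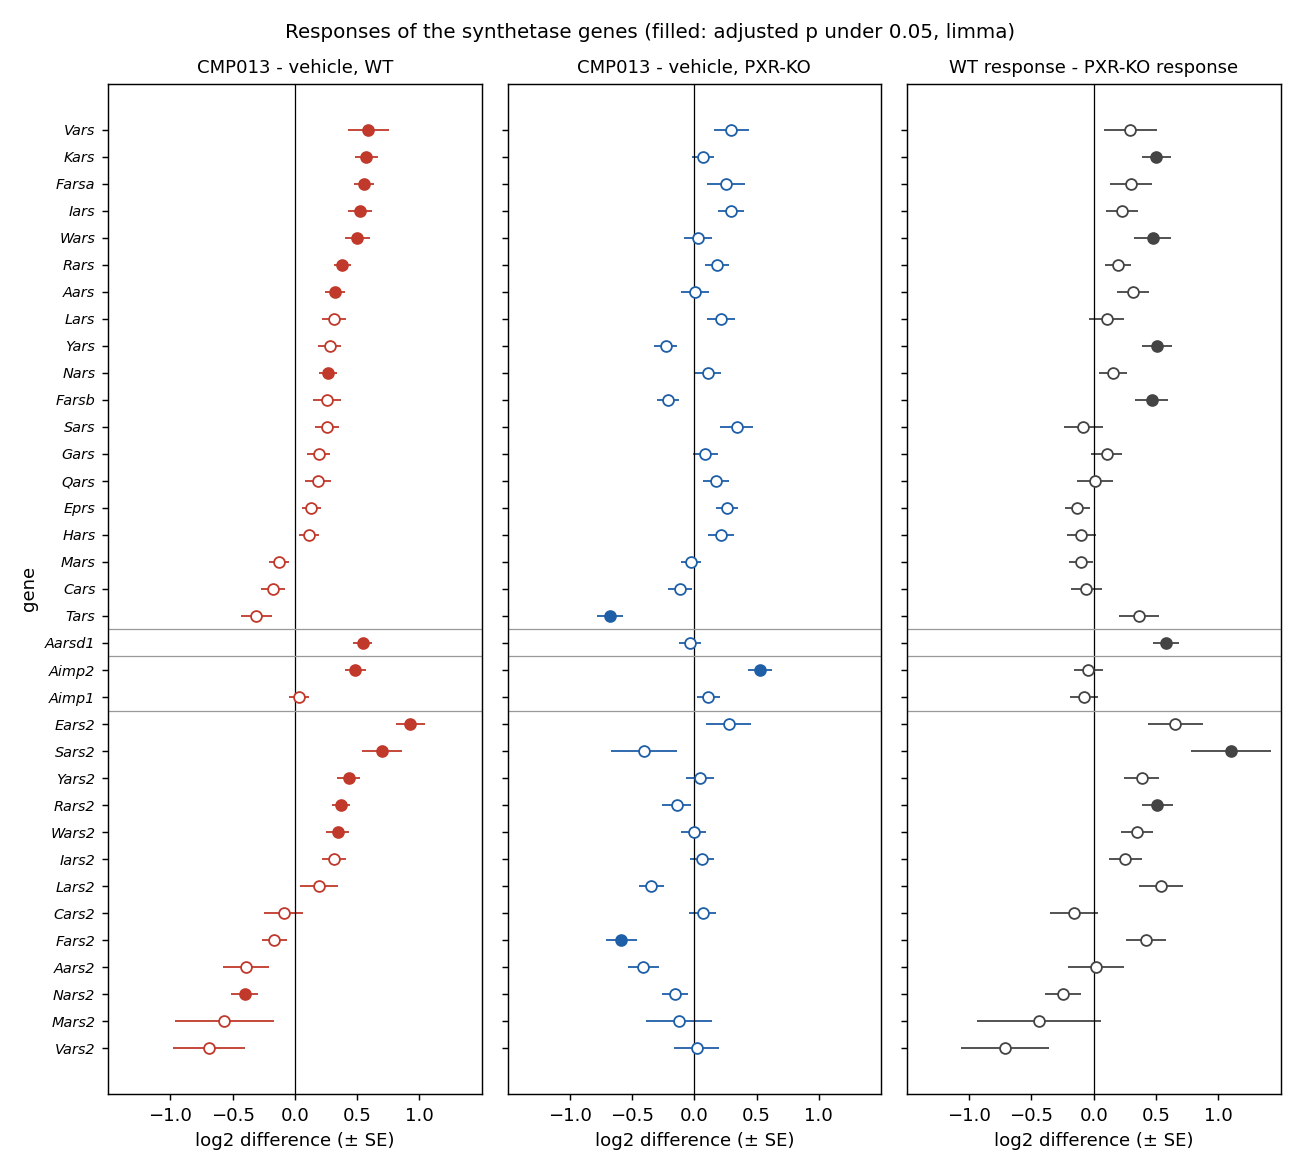
Log2 difference with its standard error for each measured member (rows) in WT livers, in PXR-KO livers and for the difference between these responses (WT minus PXR-KO), with filled points where the adjusted p was under 0.05. Filled points number 16 in the first panel, 3 in the second and 7 in the third, and all 7 of the third lie to the right of 0.

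In PXR-KO mice 3 of the 35 members were called, 1 higher and 2 lower, where 2.5% of all genes rose and 2.14% fell. Treated and vehicle animals did not overlap for 2 members that were higher in treated animals (4.79% of all genes) and 4 that were lower (5.11% of all genes), and all 5 treated animals were past the fold threshold upwards for 1 member (2.87% of all genes) and downwards for 1 (2.59% of all genes). No cytosolic synthetase rose (3 of 19 at an unadjusted p under 0.05, limma) and Tars fell, and no mitochondrial synthetase rose (0 of 13 at an unadjusted p under 0.05, limma) and Fars2 fell. The median log2 fold change was 0.11 over the cytosolic and -0.12 over the mitochondrial synthetases, against -0.02 over all genes. The mitochondrial value rested on single animals, since leaving out PXR-KO CMP013 replicate 2 turned it to 0.017, leaving out replicate 5 of the same group gave -0.02, and leaving out vehicle replicate 5 gave -0.04. Sars had the highest cytosolic value, 0.34 (SE 0.13, adjusted p = 0.183), and Lars2 and Aars2 were at -0.35 (adjusted p = 0.0877) and -0.41 (adjusted p = 0.103). Of Eprs, a probe set marked as possibly binding related transcripts gave 0.48 (adjusted p = 0.0402), while the one used gave 0.26 (adjusted p = 0.137).

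Tars, the threonine enzyme, was the lowest cytosolic member in both genotypes. In PXR-KO mice its ratios were 0.724, 0.567, 0.561, 0.625 and 0.675 under CMP013 and 0.903, 1.08, 0.914, 1.05 and 1.07 under vehicle, with every treated animal below every vehicle animal (log2 fold change -0.67, SE 0.11, adjusted p = 0.00992). In WT mice they were 0.654, 0.781, 0.856, 1.04 and 0.751 against 0.917, 1.10, 1.04, 0.974 and 0.975 (-0.31, SE 0.13, adjusted p = 0.135). The WT groups overlapped through 1 treated animal, and the difference of 0.37 between the responses did not pass (SE 0.16, adjusted p = 0.157). The PXR-KO call held without any 1 animal and was lost without the 4 vehicle animals that stood apart. It was also lost with trend and robust variances (adjusted p = 0.065, limma) and with replicate number entered as a block.

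Fars2, the mitochondrial phenylalanine enzyme, fell in PXR-KO mice by 0.59 (SE 0.13, adjusted p = 0.0362), with 4 of 5 treated animals past the fold threshold in that direction. The call was lost without any of the 5 PXR-KO vehicle animals or without PXR-KO CMP013 replicates 2 or 4 (adjusted p up to 0.087). It was also lost after quantile normalization, with trend and robust variances and with replicate number entered as a block. The mean over its probe sets, its probe set of largest fold change in WT mice and the fit without the 4 vehicle animals that stood apart lost it too. The other probe set of Fars2 gave -0.20 in PXR-KO mice (SE 0.17, adjusted p = 0.565). In WT mice Fars2 was at -0.17 (adjusted p = 0.335).

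The scaffolds parted from each other. Aimp2, which holds several enzymes in the complex, was the 1 member raised in both genotypes. Its WT ratios were 1.38, 1.32, 1.32, 1.33 and 1.53 under CMP013 against 0.878, 1.02, 0.98, 0.992 and 1.05 under vehicle (log2 fold change 0.48, SE 0.08, adjusted p = 0.00441). Its PXR-KO ratios were 1.57, 1.52, 1.38, 1.61 and 1.35 against 1.22, 0.972, 0.978, 1.00 and 0.991 (0.53, SE 0.10, adjusted p = 0.0201). All 10 treated animals were past the fold threshold and above the vehicle animals of their genotype, and the responses differed by -0.04 (SE 0.12, adjusted p = 0.863). The PXR-KO call was lost without PXR-KO vehicle replicates 3 or 5 or PXR-KO CMP013 replicates 2 or 4 (adjusted p up to 0.0622). The call of Aimp2 in PXR-KO mice was also lost after quantile normalization (adjusted p = 0.104), with trend and robust variances (adjusted p = 0.0802) and without the 4 vehicle animals that stood apart (adjusted p = 0.11). With replicate number entered as a block it was lost too. The other probe set of Aimp2 was called in WT mice only (0.45, adjusted p = 0.0222, against 0.27 in the knockout, adjusted p = 0.104).

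Aimp1 stood near 1 throughout. Its WT ratios were 1.02, 1.06, 1.04, 0.956 and 1.01 under CMP013 and 0.956, 1.12, 0.931, 1.01 and 0.952 under vehicle (0.04, SE 0.08, adjusted p = 0.835), and its PXR-KO ratios were 1.23, 1.07, 0.999, 1.08 and 0.97 against 0.988, 0.881, 0.991, 1.08 and 0.994 (0.11, SE 0.09, adjusted p = 0.544). The groups overlapped in both genotypes. Eef1e1, the remaining scaffold of the complex, was at 0.44 in WT mice (SE 0.14, adjusted p = 0.0677). In the knockout it was at 0.21 (adjusted p = 0.236).

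Tested directly, the response of 7 of the 35 members was higher in WT than in PXR-KO mice and that of 0 was lower (0 at an unadjusted p under 0.05, limma), where 7.39% of all genes had a higher and 6.22% a lower response in WT mice. These 7 were the cytosolic Farsb, Kars, Wars and Yars, the editing protein Aarsd1, and the mitochondrial Rars2 and Sars2. The remaining members called in WT mice were not shown to respond differently in the 2 genotypes by the probe set used, although for Iars the other probe set passed. Without the 4 vehicle animals that stood apart, 1 cytosolic and 1 mitochondrial synthetase passed for the difference, and after quantile normalization no synthetase did, while Aarsd1 still passed. Leaving out WT vehicle replicate 1, WT CMP013 replicate 3, PXR-KO vehicle replicates 1 or 4 or PXR-KO CMP013 replicate 2 gave 2 cytosolic calls in place of 4, and leaving out WT CMP013 replicate 5 or PXR-KO CMP013 replicate 5 gave 4 mitochondrial calls in place of 2.

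The animals were also compared by the median log2 ratio over the genes of a role. Over the 19 cytosolic synthetases this was 0.15, 0.28, 0.26, 0.33 and 0.38 in WT CMP013 animals against -0.03, 0.02, 0.01, 0.03 and -0.05 in WT vehicle animals, and 0.30, 0.15, -0.03, 0.16 and 0.09 in PXR-KO CMP013 animals against -0.03, 0.00, -0.05, 0.12 and -0.02 in PXR-KO vehicle animals. The WT groups were apart and the PXR-KO groups overlapped, with 2 PXR-KO treated animals in the range of the WT treated ones. Over the 13 mitochondrial synthetases it was 0.19, 0.23, 0.19, 0.29 and 0.11 in WT CMP013 against -0.06, 0.05, -0.07, -0.09 and 0.09 in WT vehicle animals, and -0.17, -0.16, -0.13, -0.15 and 0.01 in PXR-KO CMP013 against 0.13, -0.21, -0.02, 0.01 and 0.01 in PXR-KO vehicle animals. In PXR-KO treated animals the mitochondrial median thus lay below the cytosolic one in all 5 animals, whereas in WT treated animals it did so in 4 of 5. These medians carry no test, because the genes were chosen with earlier results known.

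**Figure D4:**
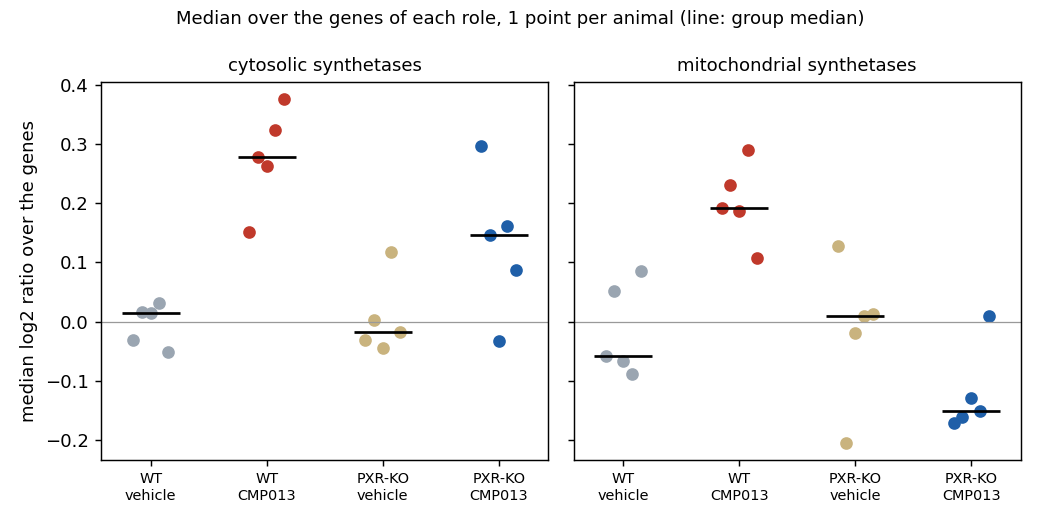
Median log2 ratio over the 19 cytosolic (left) and 13 mitochondrial (right) synthetases in each animal, 1 point per animal, with a line at the group median. WT CMP013 animals lie above WT vehicle animals in both panels, and PXR-KO CMP013 animals lie at a median of 0.15 on the left and -0.15 on the right.

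The promoter matches and the responses can be set side by side. Of the 5 cytosolic genes with TGATGNAA in the window, Iars and Aars rose in WT mice, Yars differed between the genotypes, Gars was not called in any comparison (0.19 in WT mice, 0.09 in the knockout) and Tars fell in PXR-KO mice. Kars and Farsa, with the smallest adjusted p among the cytosolic genes in WT mice, had no match in their windows. Neither had the mitochondrial genes that rose. Nars, Rars, Vars and Wars also rose in WT mice but had no window, so they were not searched. Among 29 measured genes of the amino acid response, 12 rose and 3 fell in WT mice (median 0.21), 3 rose and 1 fell in PXR-KO mice (median 0.13), and 7 had a higher and 6 a lower response in WT mice. Psat1, an enzyme of serine synthesis, rose by 3.10 in WT (SE 0.24, adjusted p = 5.2e-05) and by 1.04 in PXR-KO mice (SE 0.24, adjusted p = 0.0403), while Chac1, which breaks down glutathione, fell by 1.98 in WT mice (SE 0.23, adjusted p = 0.000473). The glycine transporter Slc6a9 rose by 0.77 (SE 0.09, adjusted p = 0.000563) and the mitochondrial folate enzyme Mthfd2 by 0.75 (SE 0.12, adjusted p = 0.00239) in WT mice. Atf4 itself rose by 0.36 in WT mice (SE 0.08, adjusted p = 0.0121, limma). In PXR-KO mice it was at 0.595 and did not pass (SE 0.20, adjusted p = 0.14), nor did the difference (-0.23, SE 0.22, adjusted p = 0.551). In WT mice the called genes of the response thus moved in both directions, 12 higher and 3 lower. The part of ATF4 in the synthetase values was not tested.

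The eIF2 kinases and the subunits of eIF2B lie upstream of ATF4. Of their 9 measured genes, 2 rose and 0 fell in WT mice (1 at an unadjusted p under 0.05, limma). Those that rose were Eif2b3 by 0.68 (SE 0.09, adjusted p = 0.00118) and Eif2ak2, the kinase activated by double-stranded RNA, by 0.60 (SE 0.13, adjusted p = 0.0132). In PXR-KO mice none of the 9 was called (2 higher and 1 lower at an unadjusted p under 0.05, limma). Of 13 further aminoacylation genes, Gatb and Tars2 (0.32, SE 0.08, adjusted p = 0.023) rose and Hars2 fell in WT mice (-0.27, SE 0.08, adjusted p = 0.0476). Hars2 also fell in PXR-KO mice (-0.40, SE 0.08, adjusted p = 0.0308). Hars2, Tars2 and Pars2 (0.02 in WT mice, adjusted p = 0.947) encode mitochondrial synthetases too. They were not on the member list, so the mitochondrial counts and the pairs above leave them out. Among 9 elongation factors, which carry charged transfer RNA to the ribosome and move the ribosome along, the mitochondrial Gfm1 rose in WT mice (0.81, SE 0.13, adjusted p = 0.00263) and 0 fell (0 at an unadjusted p under 0.05, limma). Altogether 3 of the 9, each mitochondrial, had a higher response in WT than in PXR-KO mice, namely Gfm1 (0.90, SE 0.19, adjusted p = 0.00427), Tufm (0.57, SE 0.12, adjusted p = 0.00355) and Tsfm (0.48, SE 0.13, adjusted p = 0.0226).

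Other lists moved in the same WT animals. All 5 measured PXR target genes rose (median 3.72), with Cyp2b10 at 6.47 (SE 0.17, adjusted p = 5.53e-08), and 7 of 9 proliferation genes rose (median 1.30). In PXR-KO mice 1 of the 5 PXR target genes rose, Slco1a4 at 2.818 (adjusted p = 0.00142, limma), and 2 fell. The lower ones were Cyp2b10 at -1.332 (adjusted p = 0.0363) and Cyp2c55 at -3.918 (adjusted p = 0.00492). The responses differed between the genotypes for 4 of the 5, but not for Slco1a4 (0.902, adjusted p = 0.195). Of the 9 proliferation genes 0 rose and 1 fell in PXR-KO mice. Some markers of other liver cells fell in WT mice. Of 10 macrophage markers 4 fell and 0 rose (animal medians -0.58 to -0.18 under CMP013 and -0.30 to 0.18 under vehicle), of 7 endothelial markers 4 fell and 0 rose (-0.44 to -0.29 and -0.12 to 0.13), of 7 stellate cell markers 2 fell (-0.81 to -0.01 and -0.19 to 0.19), and of 7 hepatocyte markers 2 fell (-0.17 to -0.06 and -0.08 to 0.09). No rise in these 4 lists passed an unadjusted p under 0.05 (limma). Of 8 lymphocyte and neutrophil markers 2 rose, S100a8 and S100a9 (-0.20 to 0.05 and -0.30 to 0.35 over the list). Mpo, another neutrophil marker, was at 0.00 (SE 0.15, adjusted p = 0.997, limma). Of 5 biliary markers none was called (0 at an unadjusted p under 0.05, limma). In PXR-KO mice 2 of 10 macrophage markers rose (-0.15 to 0.40 under CMP013 and -0.49 to 0.54 under vehicle). Of the 7 endothelial markers 1 rose (Lyve1) and 1 fell (Kdr), and of the 8 lymphocyte and neutrophil markers 1 rose (S100a8). No hepatocyte, stellate cell or biliary marker was called there. At an unadjusted p under 0.05 (limma), 1 hepatocyte marker was higher and 1 stellate cell marker lower. The part of these cell types in the synthetase values was not tested.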

How the data were processed

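Liver RNA of 20 mice was hybridized to Affymetrix GeneChip mouse arrays. The authors deposited log10 ratios made in Rosetta Resolver 7.2, each the intensity of 1 animal over the average of the 5 vehicle mice sharing its genotype, limited to 2 in size (7 values at the limit). No intensities or detection calls were used here, so dim probe sets were kept and depth is limited by the number of arrays. The log10 ratios were converted to log2. R 4.3.3 with limma 3.58.1 (functions lmFit and eBayes) compared CMP013 with vehicle on the 10 arrays of each genotype and the responses with each other on all 20, and a gene was called where the Benjamini-Hochberg adjusted p, taken over all 45037 probe sets, was under 0.05. Genes were named through the platform annotation. Each gene was represented by a probe set annotated to it alone. Probe sets unmarked by _s_ or _x_ came first, and within the marked or unmarked ones the smallest vehicle SD decided. The spread of the vehicle animals also enters the tests. Percentages over all genes use the 18193 genes so chosen. Each animal was a separate mouse. Members, lists and tests were chosen with earlier results of these data known. Values of every animal are given for up to 14 called members by adjusted p and for the highest and lowest member of each role in WT mice. Up to 4 genes per pathway list are named, taken from those with the smallest adjusted p in WT mice. Not every such gene is named, and no proliferation gene is. Atf4, Qrsl1, Gatc and Pars2 were named in addition. The fits were tested on simulated data. Promoter sequence and motif shares came from RefSeq windows of GRCm38.p6. Alternatives were 10 settings fixed at the start, 2 added later and each animal left out in turn. Further software was Python 3.11.15 with pandas 2.3.3, numpy 2.4.6 and matplotlib 3.10.9.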

Additional observations from a re-analysis of the deposited data

Results flagged for a closer look

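In 8 of the 80 groups of 5 animals checked for the 20 called members, the extreme animal lay far from the other 4, where chance gives about 1 in 20. On the log2 scale these were Farsa in WT vehicle replicate 1 (-0.20), Kars in PXR-KO CMP013 replicate 1 (0.27), Wars in PXR-KO CMP013 replicate 1 (0.38), Aarsd1 in PXR-KO CMP013 replicate 4 (-0.29), Fars2 in WT vehicle replicate 3 (0.20), Sars2 in WT CMP013 replicate 5 (0.23), Wars2 in PXR-KO CMP013 replicate 2 (-0.19) and Aimp2 in PXR-KO vehicle replicate 1 (0.29). Kars and Wars shared the same high animal, PXR-KO CMP013 replicate 1. That animal also had the highest median over the cytosolic synthetases in its group, 0.30 against -0.03 to 0.16 in the other 4.

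By the test of the difference itself, the response was larger in WT than in PXR-KO mice for Farsb by 0.47, Kars by 0.50, Wars by 0.47, Yars by 0.51, Aarsd1 by 0.58, Rars2 by 0.51 and Sars2 by 1.10 on the log2 scale. Each is given with its error and adjusted p above.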

How the results depend on the processing

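No call changed direction under any alternative, while the mitochondrial median in PXR-KO mice, which carries no test, changed sign without PXR-KO CMP013 replicate 2 (0.017). Of the calls of single members, 500 repeats kept their side of the threshold and 142 did not, and the calls of Iars, Aarsd1 and Ears2 in WT mice and of Aarsd1 for the difference held under all settings and all left-out animals. Quantile normalization, which gives all arrays the same spread, left 2 cytosolic and 1 mitochondrial synthetase higher in WT mice, 0 mitochondrial lower in WT or PXR-KO mice, and 0 cytosolic and 0 mitochondrial for the difference. The replicate numbers did not pair the animals (correlations of same-numbered animals -0.24 to 0.07), and when replicate number entered the fit as a block, 4 cytosolic and 2 mitochondrial synthetases were higher in WT mice, 2 cytosolic and 0 mitochondrial differed between genotypes, and 0 were lower among the cytosolic in PXR-KO mice and the mitochondrial in either genotype. Without the 4 vehicle animals that stood apart, added after seeing the data, these counts were 4, 2, 1 and 1, and again 0 lower, and the mitochondrial median in PXR-KO mice was -0.21. With the mean over probe sets, 2 cytosolic genes differed between genotypes and 0 mitochondrial were lower in WT or PXR-KO mice. Variances with trend and robust gave 0 cytosolic and 0 mitochondrial lower in PXR-KO mice. With the probe set of largest fold change, 1 cytosolic was higher and 0 mitochondrial lower in PXR-KO mice, and the WT medians were 0.38 (cytosolic) and 0.30 (mitochondrial). Counting a gene if any probe set was called, also added later, gave 1 cytosolic higher in PXR-KO mice and a cytosolic WT median of 0.35. All 4 groups in one fit gave 1 cytosolic higher in PXR-KO mice. Array weights gave 5 mitochondrial genes for the difference and a mitochondrial WT median of 0.27, and without the most variable probe sets 4 mitochondrial genes passed for the difference. Leaving out 1 animal gave 5 to 9 cytosolic higher and 0 to 1 lower in WT mice, 1 cytosolic lower in PXR-KO mice, 2 to 4 for the difference, 4 to 6 mitochondrial higher and 0 to 1 lower in WT mice, 0 to 1 lower in PXR-KO mice and 1 to 4 for the difference, with medians of 0.25 to 0.30 and 0.07 to 0.18 (cytosolic, WT and PXR-KO) and 0.15 to 0.30 and -0.15 to 0.017 (mitochondrial). The cause of these shifts was not tested.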

Other observations

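Several members start close to a neighbouring gene that is read in the other direction. Only the 29 members with a promoter window were searched, so Cars, Hars, Lars, Nars, Rars, Vars and Wars were left out. Among those searched, 7 measured members had a measured neighbour starting within 300 bases (Kars, Ears2, Fars2, Rars2, Sars2, Aimp1 and Aimp2). This set was looked at after the members' values had been seen. Ubfd1, the neighbour of Ears2, rose in WT mice by 0.31 on the log2 scale (SE 0.08, adjusted p = 0.0271) where Ears2 rose by 0.93, and its responses differed by 0.42 (SE 0.11, adjusted p = 0.0206). Orc3, an origin recognition subunit beside Rars2, was not called in WT mice (0.27, adjusted p = 0.0934), while its responses differed by 0.45 (SE 0.13, adjusted p = 0.0271) beside 0.51 for Rars2. Tbck, beside Aimp1, had a higher response in WT mice by 0.52 (SE 0.14, adjusted p = 0.0192), whereas Aimp1 was at -0.08 for the same difference. Mrps12, a mitochondrial ribosomal protein gene beside Sars2, was at 0.00 in WT mice (adjusted p = 0.995) where Sars2 rose by 0.70. The neighbours of Kars, Fars2 and Aimp2 were not called in any comparison.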
